A study of Mus musculus with 8 samples.

Results

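The 78 genes described here encode proteins of the mitochondrial ribosome. They were taken by symbol from the 13245 genes of the deposited table, as all rows whose symbol is Mrpl or Mrps followed by a digit, so no measured value chose them. By symbol, 49 belong to the large subunit (Mrpl) and 29 to the small subunit (Mrps). A further row, Mrpl23-ps1, a retrocopy of Mrpl23, was dropped by the rule. The libraries are RNA-seq of lymph node CD8 T cells sorted as positive for Ly6C and CXCR3, from CD103Tg mice, which carry a transgene for CD103 overexpression, and from B6 (C57BL/6) mice, with 4 libraries per genotype and no further treatment named. The promoter of the transgene, the age and sex of the mice, and whether a library is 1 mouse or a pool are not given in the sources used here, so p-values measure the spread between these libraries, which may be technical in part.

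The mitochondrial ribosome translates the few messenger RNAs that mitochondria transcribe from their own genome, all of which encode subunits of the respiratory chain and ATP synthase. Its RNA comes from the mitochondrial genome (mt-Rnr1 in the small subunit, mt-Rnr2 in the large), whereas all of its proteins are encoded in the nucleus, made in the cytosol and imported. Some of these proteins have bacterial counterparts and others arose with mitochondria. Mouse cytotoxic T cells need mitochondrial translation to sustain the making of their killing proteins, and activated T cells enlarge their mitochondrial mass as they divide.

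The mitochondrial ribosomal protein genes differed little between the genotypes, and no member changed by as much as 0.5 on the log2 scale. Of the 78, 15 were higher and 2 were lower in CD103Tg than in B6 cells at an adjusted p under 0.05, and 61 did not pass (limma on log2(CPM + 1), Benjamini-Hochberg over all 11503 tested genes). Without CD103Tg replicate 1, 9 were higher and 2 lower (14.1% of members called, against 26% of all tested genes). With all libraries, 31.2% of tested genes passed in either direction, 17.4% as higher and 13.8% as lower. The 17 members are 21.8% of 78, with 19.2% higher and 2.56% lower, so the share of rises was close to that of all tested genes and the share of falls was below it, with no test of either difference. The rises lay between 1.14-fold and 1.32-fold, with the largest in Mrpl14 and Mrpl41, and the falls were in Mrps5 (0.82-fold) and Mrps18b (0.84-fold), both of the small subunit. Across all members the median log2 fold change was 0.10, against -0.005 over all tested genes, and 55 of 78 (70.5%) were on the positive side, against 48.9% of tested genes. No test of the list as a whole was made. All 78 had a mean above the minimum of 1 CPM and were tested. The fold change is on the log2(CPM + 1) scale, where the added 1 slightly understates the change of the lowest members.

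The 8 libraries held 50187279 to 56371476 estimated reads over the listed genes, and 1 read was worth 0.0171 to 0.0203 CPM, far below the lowest mean level of a member (12.4 CPM). Itgae, which encodes the CD103 chain, was at 3469, 4692, 4169 and 5509 CPM in the CD103Tg libraries and at 41.4, 51.4, 37.5 and 173.9 CPM in the B6 libraries. B6 replicate 4 stood apart in Itgae and also had the lowest value of 33 of the 78 members. Without it 10 members were higher and 3 lower (16.7% called, against 30% of all tested genes). Of 8 T cell and sort marker genes, Cd8a was lower (1006 against 1191 CPM) and Cd3e, Cd3d, Cd3g, Cd8b1, Cd44, Ly6c2 and Cxcr3 did not pass. All 18 proliferation markers were higher, with a summed level of 1283 to 1869 CPM in CD103Tg and 705.2 to 775.6 CPM in B6. Of the markers of other cells, 8 of 11 tested myeloid and dendritic genes were higher (summed 113.8 to 205.9 CPM in CD103Tg and 35.8 to 86.4 CPM in B6), as were 4 of 5 natural killer genes (567 to 772.1 CPM and 333.5 to 389 CPM). B cell genes had 4 of 6 higher and 1 lower (484.1 to 624.4 CPM in CD103Tg and 811.7 to 901.5 CPM in B6). Of these 6, 5 had positive fold changes (median 1.16 on the log2 scale). The lower sum in CD103Tg comes from the 1 gene that fell (-1.11). Plasma cell genes had 3 of 3 higher (103.8 to 151 CPM in CD103Tg and 64.8 to 80.8 CPM in B6), and gamma delta T cell genes 3 of 4 higher (46.6 to 108 CPM and 16.7 to 27.2 CPM). Single genes of the B cell, myeloid and natural killer lists (Ms4a1, Adgre1 and Ncr1) were under 2 CPM in every library, while most tested genes of those lists were higher. No granulocyte or CD4 T cell marker reached the minimum level for a test. None of 4 tested erythroid genes, all of them globins, passed, but their list summed to 184.7 CPM in CD103Tg replicate 4 (0.707 to 9.66 CPM in the other CD103Tg libraries) and to 56 CPM in B6 replicate 4 (1.5 to 5.97 CPM in the other B6 libraries). Without both of these libraries 10 members were higher and 3 lower (16.7% called, against 31.7% of all tested genes). The only stromal and endothelial marker listed, Pecam1, was lower (63.3 ± 5.4 CPM in CD103Tg and 87.8 ± 8.61 CPM in B6, SD, n = 4 each). Of 14 tested handling and heat shock genes 3 were lower, with sums of 1578 to 2473 CPM in CD103Tg and 1488 to 3410 CPM in B6. Y-linked genes summed to 155.5, 243.4, 102.3 and 54 CPM in CD103Tg and to 277, 321.8, 0.0383 and 281.6 CPM in B6, so B6 replicate 3 stood apart. With their level as a covariate 15 members were higher and 2 lower (21.8% called, against 29.9% of all tested genes). Without B6 replicate 3, 16 members were higher and 2 lower (23.1% called, against 26.9% of all tested genes). The part of proliferation and of other cells in the differences below was not tested. In bulk RNA, a change in the number of cells of a type cannot be told apart from a change in RNA per cell.

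**Figure D1:**
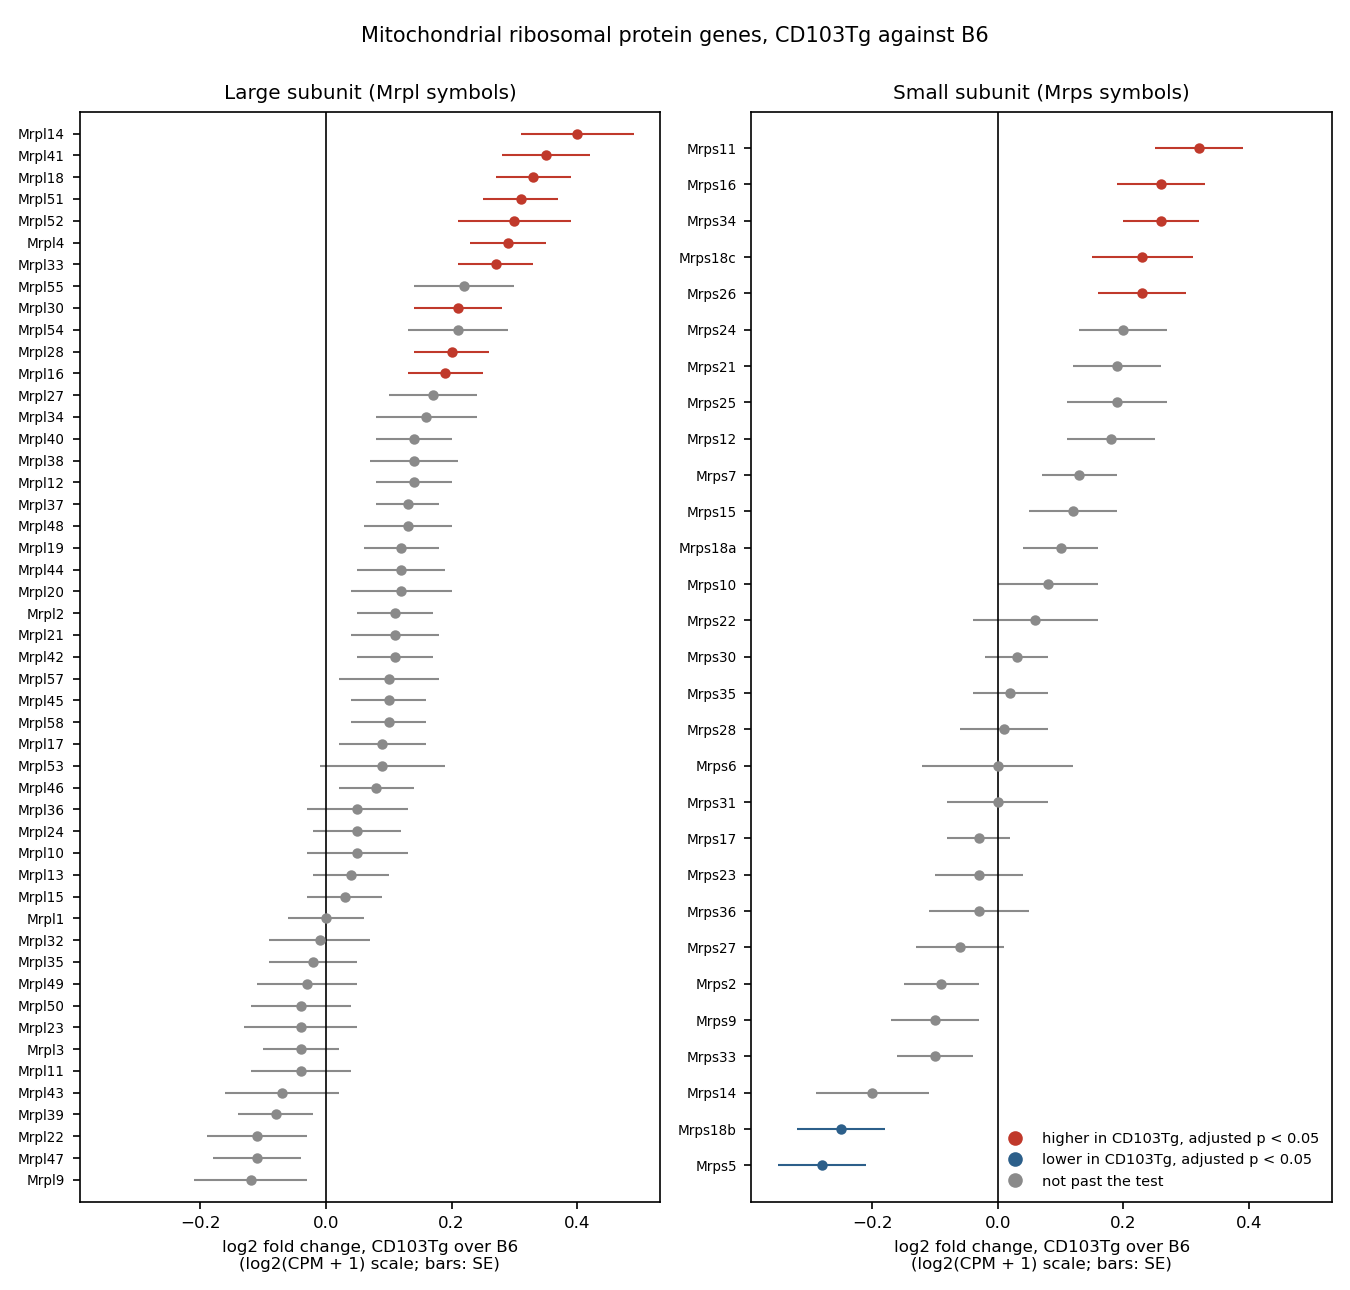
Log2 fold change of every member, CD103Tg over B6, with its standard error (bars, limma fit over 4 and 4 libraries), for large subunit symbols on the left and small subunit symbols on the right; the x axis is on the log2(CPM + 1) scale and colour shows the call at an adjusted p under 0.05. All values lie between -0.28 and 0.40, with 10 large and 5 small subunit genes called higher and 2 small subunit genes called lower.

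Promoter windows of 4 members are shown because, in 3 of them, the neighbouring gene that starts on the opposite strand nearby also changed in the same direction (Mrpl51, Mrpl30 and Mrps5, described further on), and the fourth, Mrps18b, is the other member that fell. Each window runs from 250 bases before to 50 bases after the gene's start in RefSeq for GRCm38.p6. It is read 5′ to 3′ on the strand of the gene. The RefSeq start lies downstream of the GENCODE start by 399 bases for Mrpl51 and 204 for Mrps5. It lies 51 bases upstream for Mrps18b and at 0 for Mrpl30. Distances to the neighbouring genes are counted from GENCODE starts. The Mrpl51 window therefore lies wholly inside the gene and holds none of the interval to its neighbour. The Mrps5 window covers only part of that interval. Capitals mark matches, on either strand, to the 7-letter cores CCGGAAG (ETS family, which includes GABP), GCATGCG (NRF1) and ATGGCGG (YY1), or to TATAAA (the TATA box). ETS factors such as GABP, NRF1 and YY1 are known to act on many nuclear genes for mitochondrial proteins.
Mrpl51 chr6:125191950-125192249 (+): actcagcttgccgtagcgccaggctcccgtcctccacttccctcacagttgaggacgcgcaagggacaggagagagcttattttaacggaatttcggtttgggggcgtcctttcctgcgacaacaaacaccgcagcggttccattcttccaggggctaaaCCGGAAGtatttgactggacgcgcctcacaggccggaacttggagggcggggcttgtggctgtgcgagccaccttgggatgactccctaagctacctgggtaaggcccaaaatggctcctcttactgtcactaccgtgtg
Mrpl30 chr1:37890227-37890526 (+): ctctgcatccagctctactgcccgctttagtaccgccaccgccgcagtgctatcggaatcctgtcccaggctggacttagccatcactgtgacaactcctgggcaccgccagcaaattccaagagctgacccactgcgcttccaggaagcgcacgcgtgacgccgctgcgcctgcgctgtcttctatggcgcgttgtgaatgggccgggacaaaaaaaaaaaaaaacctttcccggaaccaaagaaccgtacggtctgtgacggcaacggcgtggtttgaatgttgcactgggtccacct
Mrps5 chr2:127587176-127587475 (+): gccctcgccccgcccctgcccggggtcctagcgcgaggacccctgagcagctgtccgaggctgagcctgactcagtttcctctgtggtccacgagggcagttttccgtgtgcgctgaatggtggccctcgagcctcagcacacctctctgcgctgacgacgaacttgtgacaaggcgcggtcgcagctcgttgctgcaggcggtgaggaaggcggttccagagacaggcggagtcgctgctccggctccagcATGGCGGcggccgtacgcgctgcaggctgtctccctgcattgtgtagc
Mrps18b chr17:35916391-35916690 (-): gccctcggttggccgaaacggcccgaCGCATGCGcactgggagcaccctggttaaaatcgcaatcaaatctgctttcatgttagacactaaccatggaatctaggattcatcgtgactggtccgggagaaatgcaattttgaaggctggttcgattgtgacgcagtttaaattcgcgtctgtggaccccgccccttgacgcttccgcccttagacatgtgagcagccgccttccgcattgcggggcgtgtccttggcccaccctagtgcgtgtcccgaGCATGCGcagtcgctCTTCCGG

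The Mrpl51 window holds 1 ETS core and the Mrps5 window 1 YY1 core. In the Mrps18b window there is an ETS core and NRF1 cores at 2 places, the first of which is read on both strands and overlaps itself. The Mrpl30 window holds none of the searched letters. A window was found for 69 of the 78 members. Among these 34.8% held the ETS core, against 21.1% of the windows of 8472 other tested genes, 11.6% held the NRF1 core (7.25% of the others), 18.8% the YY1 core (9.43%) and 5.8% the TATA box (6.42%). The 24 members with an ETS core had a median log2 fold change of 0.10, with 6 higher and 1 lower, and the 45 without one a median of 0.08, with 7 higher and 1 lower. For the YY1 core the medians were -0.02 over 13 members with it (1 higher, 1 lower) and 0.11 over 56 without it (12 higher, 1 lower). For the NRF1 core they were -0.05 over 8 members with it (1 higher, 1 lower) and 0.10 over 61 without it (12 higher, 1 lower). For the TATA box they were 0.14 over 4 and 0.10 over 65 members. None of these differences was tested. A match describes the letters of a window and is not evidence of a binding site.

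In the large subunit 10 of 49 genes were higher and 0 were lower by limma, with 6 called without CD103Tg replicate 1. The counts by voom were 10 and 0, and 16 and 0 at an unadjusted p under 0.05. The share of all tested genes at that unadjusted threshold was not computed. Counts given at it, here and below, therefore have no background beside them. Mrpl18 belongs to the central protuberance of the large subunit. It had 101.5, 103.8, 98.1 and 103.2 CPM in the CD103Tg libraries and 80.6, 79.7, 88.3 and 75.2 CPM in the B6 libraries. Every CD103Tg library was above every B6 library, with a log2 difference of 0.33 ± 0.06 (SE of the fit, as after every fold change given this way; adjusted p = 0.0013 by limma). The gene lies on chromosome 17, 12911349 to 12916345 (GRCm38), and per kilobase of exon it was the highest of all members, at 65.3 CPM per kilobase. Mrpl51, a protein with no bacterial counterpart (chromosome 6, 125191801 to 125196269), was at 71.9, 71.8, 73 and 71.1 CPM in CD103Tg, against 56.1, 59.5, 61.9 and 53.7 CPM in B6. The groups were again apart, and the CD103Tg libraries were close together, with an SD of 0.818 CPM (log2 fold change 0.31 ± 0.06, limma adjusted p = 0.00166).

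Mrpl41, also specific to mitochondria (chromosome 2, 24974117 to 24975098), stood at 43.3, 40.6, 38.4 and 39.2 CPM in CD103Tg and 29.9, 32.9, 33.3 and 29.6 CPM in B6, with a gap between the groups (0.35 ± 0.07, limma adjusted p = 0.00238). Mrpl4, a counterpart of a bacterial protein that lines the exit tunnel for the growing chain (chromosome 9, 21002738 to 21008839), had 107.8, 105.2, 104.3 and 93.4 CPM in CD103Tg libraries and 83.7, 86.2, 80.8 and 83.8 CPM in B6 libraries. CD103Tg replicate 4 was the lowest of its group but still above the B6 range (0.29 ± 0.06, limma adjusted p = 0.00248). Mrpl14 (chromosome 17, 45686322 to 45698495), whose human protein binds the assembly factor MALSU1, had the largest fold change of all members, 0.40 ± 0.09 (limma adjusted p = 0.00494). Its values were 25.3, 26.1, 24.6 and 24.6 CPM in CD103Tg and 17.1, 19.4, 21.9 and 17.3 CPM in B6, so the B6 libraries were the more spread. Mrpl33, a small protein with a bacterial counterpart (chromosome 5, 31596935 to 31664384), was at 84.3, 79.8, 82.6 and 81.2 CPM in CD103Tg and at 64.4, 64.9, 75.9 and 67.2 CPM in B6, again without overlap (0.27 ± 0.06, limma adjusted p = 0.00666).

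The other 4 large subunit genes that rose did so by 0.19 to 0.30 on the log2 scale and were closer to the threshold. Mrpl28 averaged 71.9 ± 4.01 CPM in CD103Tg and 62.6 ± 2.04 CPM in B6 (SD, n = 4 each), Mrpl30 66.3 ± 4.07 and 57.4 ± 4.08 CPM, and Mrpl16 35.5 ± 1.9 and 31 ± 1.12 CPM. All 3 have bacterial counterparts. Mrpl52, of the central protuberance, averaged 27.7 ± 3.14 CPM in CD103Tg and 22.2 ± 1.53 CPM in B6, and its groups overlapped, since CD103Tg replicate 2 was at 23.2 CPM and B6 replicate 2 at 23.5 CPM. The limma adjusted p was 0.0227 for Mrpl28, 0.0286 for Mrpl52, 0.0382 for Mrpl30 and 0.0449 for Mrpl16, and each of these calls was lost when some single library was left out.

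In the small subunit 5 of 29 genes were higher and 2 were lower. Mrps11 (chromosome 7, 78783119 to 78792989), which has a bacterial counterpart, had 23.3, 23.2, 24.8 and 22.4 CPM in CD103Tg and 19.5, 18.1, 19.8 and 17.1 CPM in B6, without overlap (0.32 ± 0.07, limma adjusted p = 0.00769). Mrps16, whose human gene is mutated in an inherited defect of mitochondrial translation (chromosome 14, 20389304 to 20393634), was at 54.9, 50.4, 52.8 and 50.5 CPM in CD103Tg, against 43.8, 42, 47.3 and 40.1 CPM in B6. All CD103Tg libraries were above the B6 range (0.26 ± 0.07, limma adjusted p = 0.00997). Mrps34, specific to mitochondria (chromosome 17, 24895116 to 24897502), had 43.7, 44.9, 47.2 and 40 CPM in CD103Tg and 36.8, 35.5, 37.6 and 35.9 CPM in B6 (0.26 ± 0.06, limma adjusted p = 0.00963). Its exons overlap those of Mapk8ip3 and Nme3, and 71.8% of its 50-base words also occur in transcripts of other genes, so its share of the reads is uncertain. Mrps26 (49.2 ± 2.09 CPM in CD103Tg and 42 ± 3.9 CPM in B6, SD, n = 4 each) and Mrps18c (48.8 ± 3.67 and 41.6 ± 3.83 CPM) passed narrowly, at limma adjusted p = 0.0344 and 0.049, and overlapped between the groups. Of the Mrps18c words 22.9% occur in other genes.

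The 2 genes that fell were Mrps5 and Mrps18b. Mrps5 is the counterpart of a bacterial small subunit protein known for its role in the accuracy of decoding, and it lies on chromosome 2, 127587222 to 127606829. It had 48.7, 44, 45.9 and 40.9 CPM in the CD103Tg libraries and 58.5, 56, 54.1 and 50.5 CPM in the B6 libraries, with every CD103Tg library below every B6 library (-0.28 ± 0.07, limma adjusted p = 0.01). Mrps18b is 1 of 3 mouse homologues of a single bacterial protein, with Mrps18a and Mrps18c (Mrps18a and Mrps18b are counted below as specific to mitochondria, after the structural nomenclature), and lies on chromosome 17, 35910379 to 35916389. Its values were 65.9, 59.9, 61.2 and 55.8 CPM in CD103Tg and 77.9, 72.2, 72.7 and 67.1 CPM in B6, again apart (-0.25 ± 0.07, limma adjusted p = 0.0138). The antisense gene Gm16279 overlaps 638 bases of its exons, and 30.2% of its words occur in other genes. The 3 homologues thus gave 1 fall, 1 rise (Mrps18c) and 1 gene that did not pass, Mrps18a, at 43.5 CPM in CD103Tg and 40.7 CPM in B6 (0.10 ± 0.06, limma adjusted p = 0.265).

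**Figure D2:**
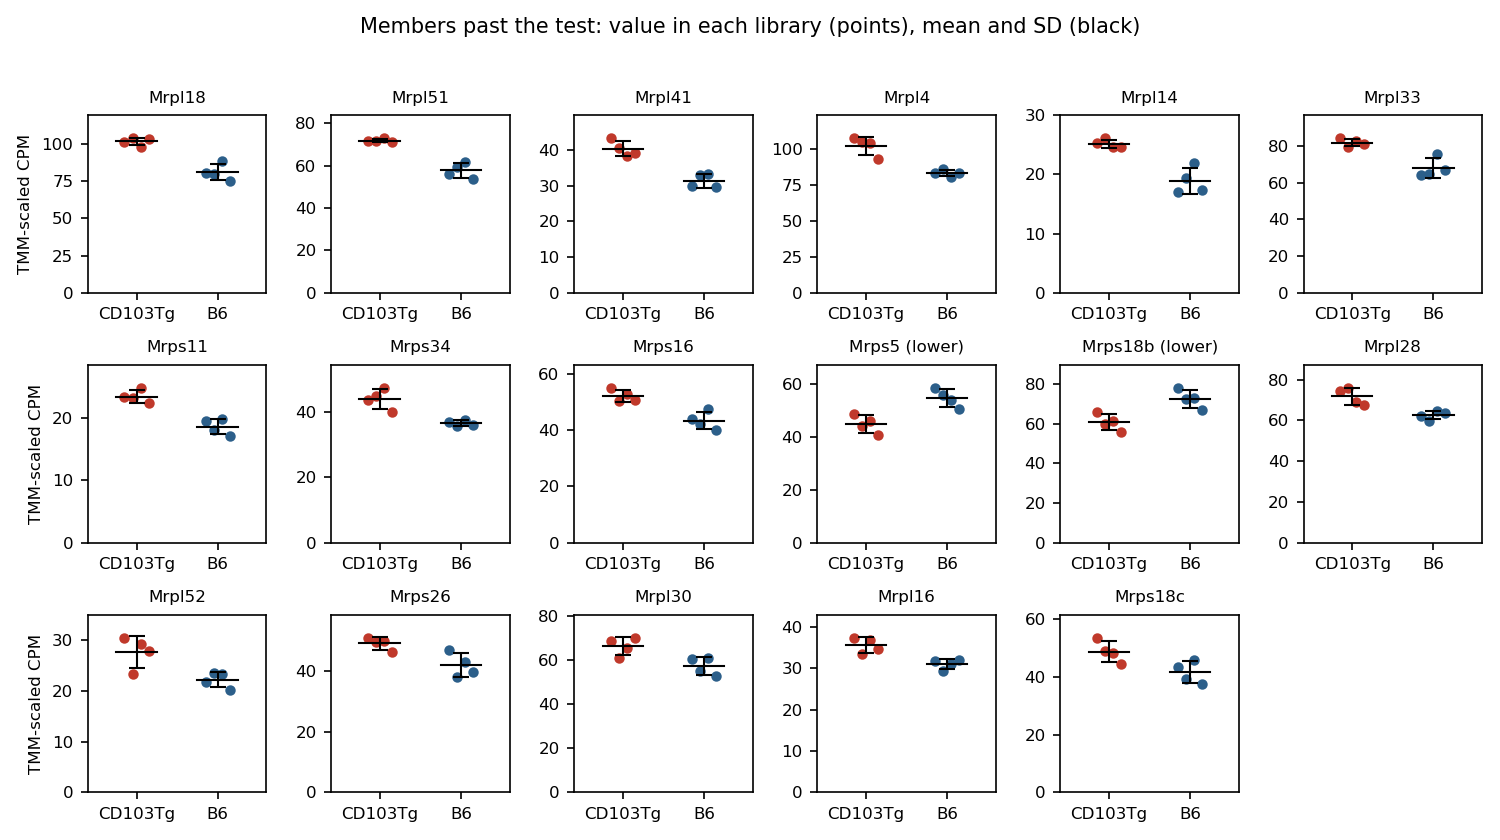
TMM-scaled CPM of the 17 members past the test in each CD103Tg library (red, left) and each B6 library (blue, right), with the mean and SD in black; each y axis starts at 0. The groups are apart in 13 of the 17 and overlap in Mrpl52, Mrps26, Mrpl30 and Mrps18c.

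Over all members the groups did not overlap for 18, with all CD103Tg libraries above all B6 libraries for 16 and below for 2, against 31% of tested genes (17.4% above and 13.6% below). Of these 18, 13 had passed the test and 5 had not. Next to the threshold were Mrps21 (51.2 ± 0.854 CPM in CD103Tg and 44.8 ± 4.12 CPM in B6, limma adjusted p = 0.0527), Mrps24 (57.1 ± 3.14 and 49.6 ± 4.53 CPM, 0.0581), Mrpl55 (32.9 ± 0.753 and 28.3 ± 3.14 CPM, 0.0612), Mrpl54 (33.7 ± 1.52 and 29 ± 2.81 CPM, 0.0621) and Mrps12 (38.5 ± 1.53 and 34 ± 2.68 CPM, 0.0769), as mean ± SD with n = 4 each. All 5 had positive fold changes, of 0.18 to 0.22 on the log2 scale. At an unadjusted p under 0.05, 25 members were higher and 3 lower, with no share over all tested genes computed at that threshold. The third lower member was Mrps14, which had the highest mean level (93.6 ± 6.3 CPM in CD103Tg and 108.1 ± 13.8 CPM in B6, log2 fold change -0.20 ± 0.09, limma adjusted p = 0.108).

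Some symbols do not match the place of the protein. Structures of the mammalian mitochondrial ribosome place the products of Mrps30 and Mrps18a in the large subunit, and Mrps36 is now regarded as a part of the 2-oxoglutarate dehydrogenase complex. Mrps30 was at 71.9 ± 3.59 CPM in CD103Tg and 70.3 ± 0.88 CPM in B6 (0.03 ± 0.05, limma adjusted p = 0.684), and Mrps36 was at 44.4 ± 1.85 CPM in CD103Tg and 45.6 ± 5 CPM in B6 (-0.03 ± 0.08, limma adjusted p = 0.796). Placed by structure, the large subunit had 10 of 51 genes higher and 0 lower with a median of 0.10, and the small subunit 5 of 26 higher and 2 lower with a median of 0.04. By symbol the medians were 0.11 for the large and 0.03 for the small subunit. The difference between the subunits was not tested. The 46 members with bacterial counterparts (10 higher, 1 lower) and the 31 specific to mitochondria (5 higher, 1 lower) both had a median log2 fold change of 0.10. Of 7 genes listed for the central protuberance 2 were higher, Mrpl18 and Mrpl52, or 28.6% against 17.4% of all tested genes. All 7 had positive values, against 48.9% of all tested genes. None of 8 genes around the exit of the peptide tunnel (median 0.00) and none of 4 genes of the stalk that recruits translation factors (median 0.07) passed the test by limma or by voom. At an unadjusted p under 0.05 these had 0 and 1 genes higher. Of all tested genes 31.2% passed by limma. The lists for these sites may be incomplete, and differences between sites were not tested.

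Levels differed far more among members than between genotypes. Mean levels ran from 12.4 CPM in Mrpl23 to 100.9 CPM in Mrps14. Per kilobase of exon in GENCODE M21, Mrpl18 (65.3 CPM per kilobase), Mrps21 (65) and Mrpl36 (57.8) were highest and Mrpl23 (2.53), Mrps10 (4.13) and Mrps35 (4.14) lowest, around a median of 19.1. The low value of Mrpl23 is uncertain, because the retrocopy Mrpl23-ps1 stood at 73.3 ± 6.19 CPM in CD103Tg and 66.2 ± 3.24 CPM in B6 (SD, n = 4 each), and 92.5% of its 50-base words are also in Mrpl23. Within a genotype the members were steady, with a median coefficient of variation of 4.99% in CD103Tg (1.14% in Mrpl37 to 15.1% in Mrps6) and 6.91% in B6 (1.25% in Mrps30 to 14% in Mrps22).

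Summed over the 49 large subunit genes, the CD103Tg libraries held 2529, 2421, 2401 and 2360 CPM and the B6 libraries 2248, 2224, 2371 and 2115 CPM. B6 replicate 3 lay within the CD103Tg range and the other B6 libraries below it. Summed over the 29 small subunit genes, the values were 1399, 1367, 1348 and 1309 CPM in CD103Tg and 1358, 1328, 1391 and 1252 CPM in B6, so here 3 B6 libraries lay within the CD103Tg range. All members together took 0.366% to 0.384% of the table in CD103Tg and 0.35% to 0.37% in B6. CD103Tg replicate 1 had the highest value of 26 members and B6 replicate 4 the lowest of 33.

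The rRNA genes of the mitochondrial ribosome had lower levels in CD103Tg, past the test for 1 of the 2. The large subunit rRNA gene mt-Rnr2 had 1124, 862.8, 819.8 and 1035 CPM in CD103Tg and 2103, 1581, 2197 and 1227 CPM in B6, with all CD103Tg libraries below all B6 libraries. The difference was -0.86 ± 0.17 on the log2 scale (adjusted p = 0.00296 by limma; exact permutation test over 70 assignments, two-sided p = 0.0286, the smallest that 4 against 4 libraries allow). The small subunit rRNA gene mt-Rnr1 had 160, 139.2, 132.8 and 164.9 CPM in CD103Tg and 339, 245.2, 270.2 and 126.9 CPM in B6. Here B6 replicate 4 was the lowest of all 8 libraries and the groups overlapped (-0.63 ± 0.23, limma adjusted p = 0.0595; exact permutation p = 0.143). Without B6 replicate 4 the log2 fold change was -0.92 with limma adjusted p = 0.000161. Library preparation that starts from polyadenylated ends captures rRNA only in part, so these levels cannot be set against those of the protein genes. With the rRNA genes, 15 of 16 tested mitochondrially encoded genes were lower and the median log2 fold change of the 16 was -0.78.

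**Figure D3:**
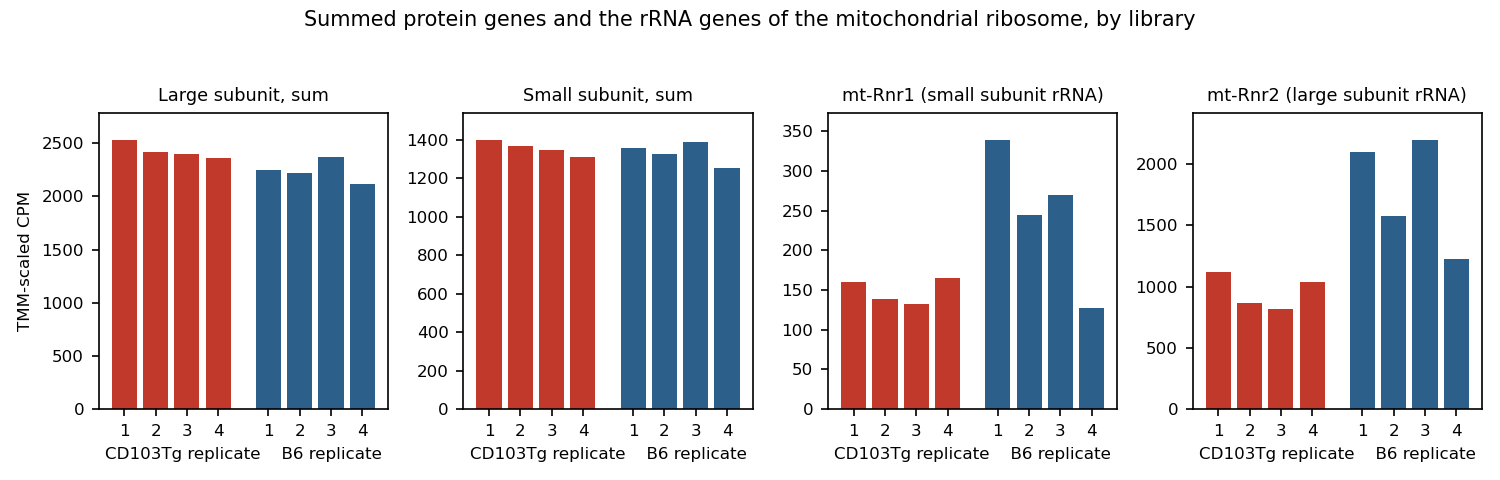
TMM-scaled CPM by library, CD103Tg replicates in red on the left of each panel and B6 replicates in blue on the right: the sum over 49 large subunit genes, the sum over 29 small subunit genes, mt-Rnr1 and mt-Rnr2. The protein gene sums differ little, while mt-Rnr2 is at 819.8 to 1124 CPM in CD103Tg and 1227 to 2197 CPM in B6.

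The 5 mitochondrial ribosomal proteins with other symbols gave 1 rise and 1 fall. Gadd45gip1, a large subunit protein, averaged 46.8 ± 2.77 CPM in CD103Tg and 38.6 ± 3.03 CPM in B6 (0.27 ± 0.07, limma adjusted p = 0.014), and Dap3, a small subunit protein that binds GTP, averaged 62.4 ± 1.45 and 71.7 ± 5.48 CPM (-0.20 ± 0.06, limma adjusted p = 0.0336). Chchd1, Aurkaip1 and Ptcd3 did not pass, at 0.13, 0.14 and -0.09.

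Genes that build and serve the mitochondrial ribosome gave few changes, and most of those that changed fell. Of 30 assembly and rRNA modification genes, 0 were higher and 3 were lower by limma (0 and 2 by voom, 1 and 6 at an unadjusted p under 0.05), with a median of -0.08: Fastkd2, an RNA-binding assembly factor (-0.22 ± 0.06), Nsun4, a methyltransferase of the small subunit rRNA (-0.27 ± 0.09), and Mettl17 (-0.24 ± 0.08). Of 15 translation factors and mRNA regulators 1 was lower, Lrpprc, which stabilises mitochondrial messenger RNA (113.1 ± 3.36 CPM in CD103Tg and 132.5 ± 11.3 CPM in B6, limma adjusted p = 0.0186). Among 20 genes for mitochondrial aminoacyl-tRNA synthetases and the glutaminyl-tRNA amidotransferase, Ears2 (-0.39 ± 0.08), Mars2 (-0.36 ± 0.11) and Lars2 (-0.45 ± 0.15) were lower. Tars2 was higher (0.23 ± 0.06). Lars2 stood at 3738 ± 408.6 CPM in CD103Tg and 5183 ± 1130 CPM in B6, with overlapping groups. Lars2 made up most of the summed level of this list, which averaged 4419 CPM in CD103Tg and 5870 CPM in B6. Shared sequence was searched only for the members and Mrpl23-ps1, so the part of other genes in the Lars2 reads is not known. None of 15 genes for mitochondrial DNA transcription and maintenance passed by limma or voom (median -0.10), with 0 higher and 3 lower at an unadjusted p under 0.05. Of 13 RNA processing and turnover genes 1 was lower, Trmt10c, a subunit of mitochondrial RNase P (-0.30 ± 0.07). In either direction, all these shares were under the 31.2% of tested genes called. Of the synthetase list 15% were lower, against 13.8% of tested genes, and the other lists had 0% to 10% lower.

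Among 10 tested regulators of mitochondrial biogenesis, Myc (307.3 ± 22.1 CPM in CD103Tg and 250.5 ± 22.4 CPM in B6, 0.30 ± 0.07) and Esrra (0.28 ± 0.08) were higher and Yy1 was lower (-0.23 ± 0.08), while Nrf1, Gabpa, Gabpb1 and Gabpb2 did not pass. The 3 called are 30% of this list, close to the 31.2% of all tested genes. Of 10 mitochondrial chaperones and proteases, Phb was higher (0.17 ± 0.05) and Hspa9 (-0.17 ± 0.05) and Yme1l1 (-0.25 ± 0.06) were lower, again 30% of the list. Nuclear genes of the respiratory chain, which share the organelle, had 11 of 37 complex I genes (median 0.15), 1 of 4 complex II genes (median 0.09), 2 of 8 complex III genes (median 0.08), 2 of 11 complex IV genes (median 0.17) and 8 of 17 ATP synthase genes (median 0.19) higher, and 1 complex IV gene lower. In this order 29.7%, 25%, 25%, 18.2% and 47.1% were higher, against 17.4% of all tested genes, with no test of these differences. Cytosolic ribosomal protein genes had a median of -0.25 over 82 tested, with 1 higher and 25 lower. The 25 are 30.5% of the list, against 13.8% of all tested genes called lower.

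**Figure D4:**
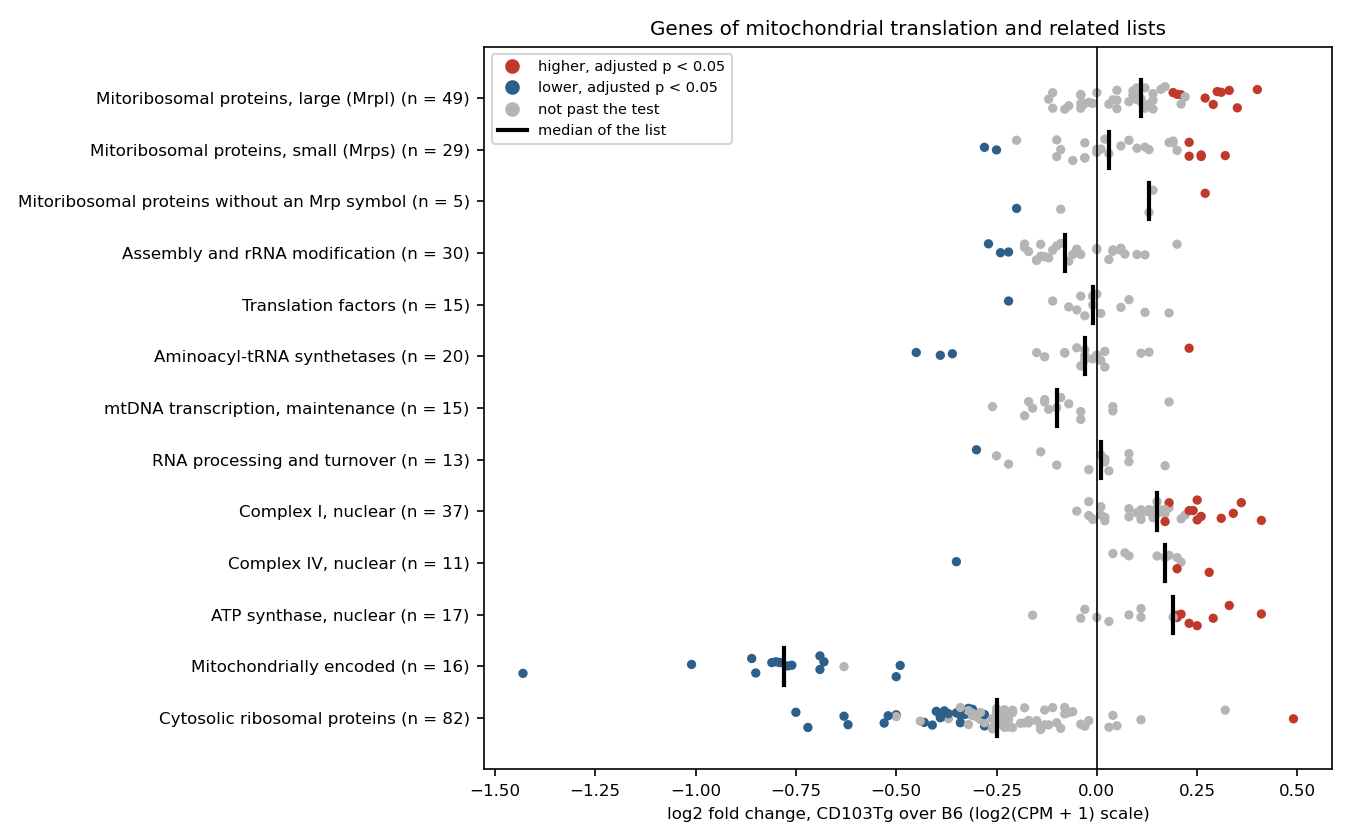
Log2 fold change, CD103Tg over B6, on the log2(CPM + 1) scale (x axis) of each tested gene (points) in the lists named on the y axis, with the median of each list as a black bar and the call at an adjusted p under 0.05 as colour. The medians are 0.11 and 0.03 for large and small subunit symbols, -0.78 for mitochondrially encoded genes and -0.25 for cytosolic ribosomal protein genes.

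Of the 78 members, 33 start within 1000 bases of a protein-coding gene on the opposite strand in GENCODE M21, as divergent pairs do, and 30 of these partners were tested. Of the partners 7 were higher and 1 was lower. In 3 pairs both genes passed, each time in the same direction. These are 3 of the 10 called members with a tested partner, close to the 31.2% of all tested genes that were called. Mrpl51 rose with Ncapd2, a condensin subunit (0.66 ± 0.08, limma adjusted p = 0.000136), 100 bases away. Mrpl30 rose with Mitd1, whose product takes part in cell division (0.33 ± 0.06, limma adjusted p = 0.00234), 66 bases away. Mrps5 fell with Zfp661, a zinc finger gene (-0.33 ± 0.10, limma adjusted p = 0.0289), 128 bases away. None of these 3 pairs shares exon bases. In other pairs 1 gene passed and its partner did not, and the difference between them was not tested: Ska3, a mitotic gene, had 1.42 ± 0.16 beside 0.10 in Mrpl57, Eme1 had 0.75 ± 0.12 beside 0.17 in Mrpl27, and Ppp1r10 had 0.05 ± 0.07 beside -0.25 in Mrps18b. Mrps11 and Mrpl46 are themselves a pair with 173 bases of overlapping exon, and Mrpl46 did not pass (0.08 ± 0.06, limma adjusted p = 0.331).

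Across the 78 members the log2 fold change went with the GC content of the transcripts (Spearman rho 0.42) and against exon length (rho -0.28). All values come from the same 8 libraries, and the same relations were present, more weakly, over 10211 other protein-coding genes tested (rho 0.23 with GC and -0.16 with length). The 39 members at or under the median exon length of 2394 bases had a median log2 fold change of 0.12 and the 39 longer ones 0.06, against 0.05 and -0.01 over other protein-coding genes split at the same length. Mean level and fold change gave a rho of 0.02. The part of GC content and length in the differences was not tested.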

How the data were processed

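The authors deposited 1 table of all 8 libraries. Per the labels it holds CPM scaled with TMM factors for a filtered gene set, a normalized signal and not counts. Libraries were prepared with SMART-Seq v4 and Nextera XT, per the labels' protocols; these kits do not mark strand. Tools listed in the submitters' processing notes are STAR 2.7.0f, RSEM, cutadapt 1.18 and bcl2fastq 2.17, with GRCm38 and mm10 as builds. How the genes were filtered is not stated there. All 13245 gene IDs matched GENCODE M21, used for positions, exon lengths and 50-base words, and promoter windows came from RefSeq (GRCm38.p6).

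A moderated linear model (limma 3.58.1, R 4.3.3, trend) with a genotype term was fitted to log2(CPM + 1) of the 11503 genes averaging 1 CPM or more, and p-values were adjusted over all of them (Benjamini-Hochberg, two-sided). The fit was tested on simulated data, with a recovery limit set only for changes far larger than those of any member. Estimated reads were recovered from value steps: 100% of values were multiples of 0.01 reads within 0.05 of a step, and 62.9% to 65.1% of nonzero values were whole reads within 0.005. They gave the depth and the voom alternative. Python 3.11.15, scipy 1.17.1, pandas 2.3.3 and matplotlib 3.10.9 did the rest.

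The members, lists, motifs and tests were chosen with earlier results of these data known. Named are all members past the test, the 5 nearest it, the 3 highest and 3 lowest per kilobase, Mrps18a, Mrps30 and Mrps36, up to 4 called genes of each list, the rRNA genes and Itgae; other genes were named after their values were seen. Alternatives were 2 pseudocounts, 2 filters, 3 scalings, robust eBayes, array weights, voom, a replicate block, a Y-linked covariate and leaving out libraries.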

Additional observations from a re-analysis of the deposited data

Results flagged for a closer look

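In 64 groups of 4 libraries, 2 had a library far from the others by Dixon's ratio, where chance gives about 1 in 20. Mrps18a was at 42.5 CPM in CD103Tg replicate 4, against 43.8 to 43.9 CPM in the other CD103Tg libraries, a small gap beside a very tight set. Itgae was at 173.9 CPM in B6 replicate 4, against 37.5 to 51.4 CPM in the other B6 libraries.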

How the results depend on the processing

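Of the 17 members past the test, 11 passed under all 21 alternatives: Mrpl18, Mrpl51, Mrpl41, Mrpl4, Mrpl14, Mrpl33, Mrps11, Mrps34, Mrps16, Mrps5 and Mrps18b. The other 6, Mrpl28, Mrpl52, Mrps26, Mrpl30, Mrpl16 and Mrps18c, lost their call under 3 to 11 alternatives, and neither these 17 nor the 5 nearest the threshold changed sign. Of the members near 0, Mrps36 was at 0.03 without B6 replicate 3 (-0.03 as reported, -0.08 to 0.03 with 1 library left out) and Mrps30 at -0.00 without CD103Tg replicate 2 (0.03 as reported, -0.00 to 0.05), neither past the test; the cause was not tested. Leaving out libraries gave 9 to 16 members higher, 2 to 3 lower, 6 to 10 large and 5 to 9 small subunit genes called, and 1605 to 2012 higher and 1181 to 1685 lower over all genes. The fewest came without CD103Tg replicate 1, with 9 members higher and 6 large subunit genes called; a fit with fewer libraries also has less power. Quantile normalization and equal totals gave 11 and 12 members higher, and turned the majority over all genes, with 46.6% and 48.7% of calls higher against 55.7% as reported. The median of the members stayed positive, at 0.07 to 0.10 over the scalings. With the replicate block 17 members were higher and 2 lower (24.4% called, against 32% of all tested genes). Same-numbered libraries were not treated as pairs, because the labels name nothing that they share. The correlations of their deviations were 0.22, 0.35, -0.08 and 0.12 for replicates 1 to 4. For replicates 1 and 2 of CD103Tg the B6 library of the same number correlated best, and for 3 and 4 another one did. Both libraries numbered 4 had the highest erythroid sum of their genotype (184.7 CPM in CD103Tg and 56 CPM in B6). A shared source of some numbers is therefore possible and was not tested. mt-Rnr1 passed under 5 alternatives, with limma adjusted p = 0.000132 to 0.0461. With 4 libraries per genotype, the number of libraries limits the size of change that can pass.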

Other observations

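The members past the test were unevenly spread over the genome, a pattern noticed after the values were seen and not tested. On chromosome 17, 5 of 8 members passed, among them Mrpl14 and Mrps18b in opposite directions, where 32.9% of the 617 tested genes of that chromosome were called. On chromosome 11, 0 of 11 members passed, by limma or voom (4 higher at an unadjusted p under 0.05), where 31.9% of 923 tested genes were called.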
